A study of Sus scrofa with 6 samples.

Results

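The vessel wall genes described here are markers of the cells that build blood vessels, 41 genes listed by symbol. They comprise 23 endothelial genes (PECAM1 to APLNR), 4 mural genes, which mark pericytes and other cells wrapped around capillaries (PDGFRB to NOTCH3), and 14 genes of the smooth muscle contractile apparatus (ACTA2 onward). A row of the deposited table matched 36 of them by Ensembl identifier and symbol, out of 14262 genes in all, namely 19 endothelial, 4 mural and 13 contractile genes. VWF, EGFL7, CLDN5, APLNR and TAGLN did not match a row and are not analysed here. Endometrium, the uterine lining, was sampled on day 12 of gestation from 3 high prolific and 3 low prolific sows of the Erhualian breed, a Chinese pig. All 6 animals are of this breed, stage and tissue, and differ by group in the prolificacy phenotype given in the labels. Each library carries the number of 1 sow, named here high 1 to high 3 and low 1 to low 3. High 1 had borne 5 litters (its parity) and high 2 and high 3 had borne 8 each, whereas low 1 and low 2 had borne 7 and low 3 had borne 5, so the 2 groups did not have the same parities. The labels do not say how prolificacy was scored, how deep the tissue was cut or whether muscle of the uterine wall was trimmed off.

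Endothelial cells line every vessel and take their growth signals from vascular endothelial growth factor and the angiopoietins. Pericytes sit on capillaries under platelet-derived growth factor control, and smooth muscle cells give arterioles their tone through actin and myosin filaments. In the pig the conceptus does not invade the uterus, so maternal vessels beneath an intact epithelium supply it, and their growth and permeability around the time of attachment are a known feature of early pig pregnancy. Several contractile genes, among them CALD1 and TPM1, are also made by cells other than muscle, and the same genes mark vessel muscle and the myometrium, the muscle layer of the uterus.

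Levels are normalized read counts as deposited. A log2 fold change below 0 means a lower level in high prolific sows, on log2(value + 1), and its error is the standard error (SE) of limma's moderated test. The deposited columns summed to between 22663087 and 24270245, sums set by the normalization, which do not give the depth behind each value. Over the 14262 genes limma called 0 at an adjusted p under 0.05 (0.0% called), and 1129 genes (7.92%) had an unadjusted p under 0.05. On the first principal component, which held 43.6% of the variance, low 2 and low 3 (43.5 and 44.2) stood apart from the other 4 libraries (between -40.9 and -1.52). Values that turned or moved by over 1.5 times without them are also given with them left out. In tissue RNA fewer cells of a type and less RNA per cell cannot be told apart.

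Vessel wall genes lay lower in high than in low prolific sows, 33 of 36, while over all genes 50.4% lay lower. The median log2 fold change was -0.45 for endothelial, -0.27 for mural and -0.29 for contractile genes, beside -0.0024 over all genes. None passed limma's test over all genes, with adjusted p between 0.619 and 0.977. At an unadjusted p under 0.05 there were 7 (PECAM1, ENG, NOS3, ACTA2, ACTG2, TPM2 and MYL9), all lower in high prolific sows, where 4.09% of all genes were lower and 3.83% higher by that rule. The groups did not overlap in 11 of 36, again all lower in high prolific sows, where 6.32% of all genes were lower and 7.18% higher without overlap (13.5% together).

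**Figure D1:**
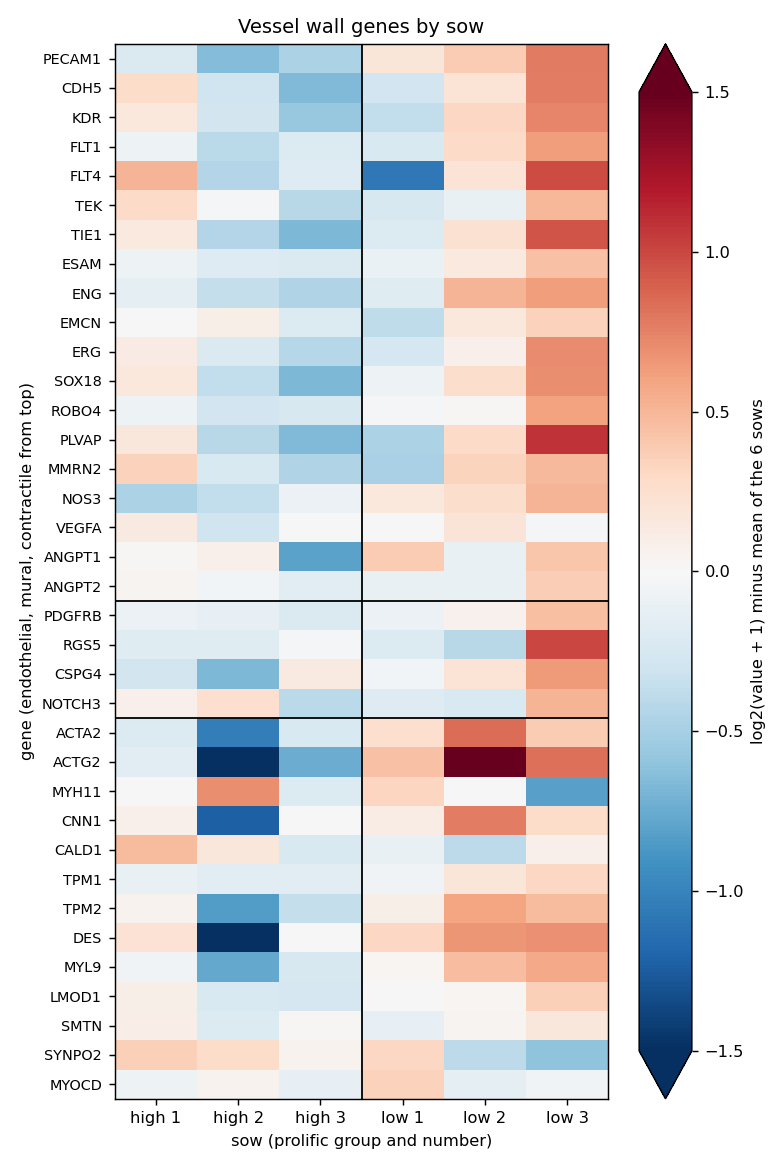
Deviation of each log2(value + 1) from the mean of the 6 sows (color) for 36 vessel wall genes (rows; endothelial, mural and contractile from top) in 3 high and 3 low prolific sows (columns). Low 3 is the highest sow in 18 of 19 endothelial rows, and high 2 the lowest in 7 of 13 contractile rows, while colors beyond 1.5 are clipped.

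**Figure D2:**
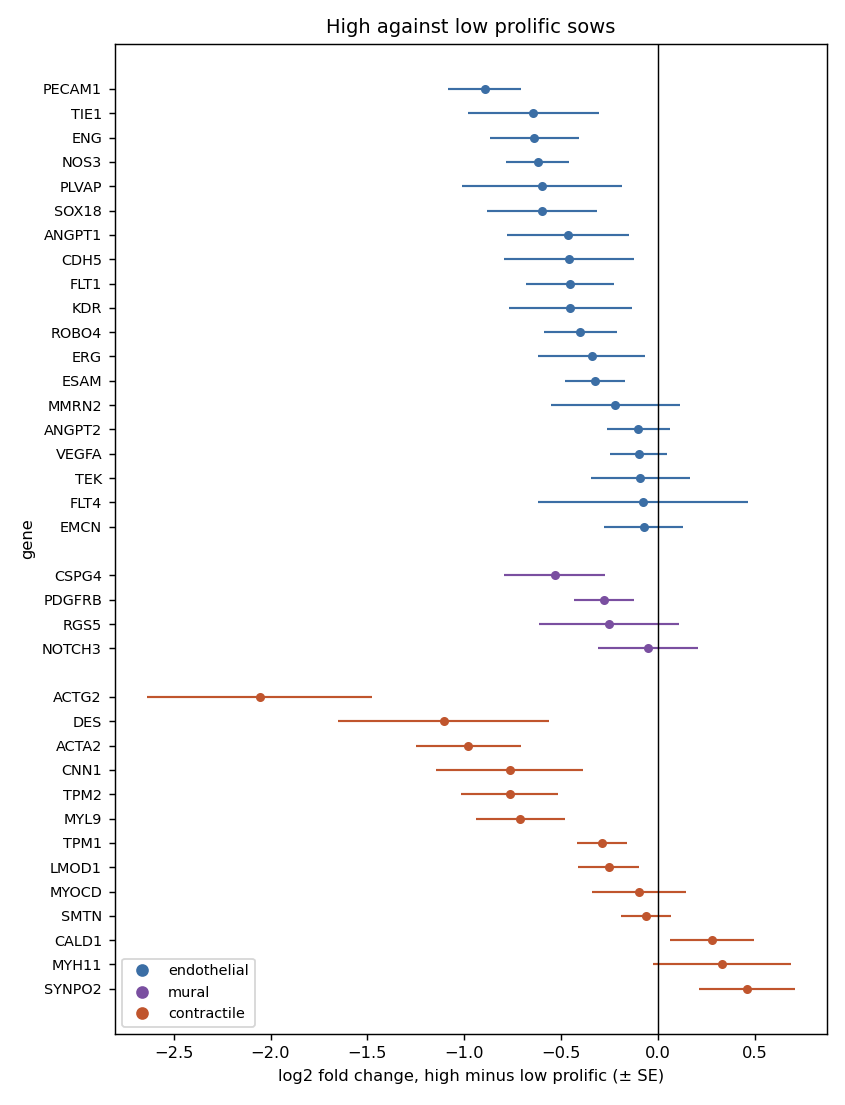
Log2 fold change, high minus low prolific, with its SE (bars) for 36 vessel wall genes in 3 classes, sorted within each class. All 19 endothelial and all 4 mural points lie below 0, and 3 contractile points (CALD1, MYH11, SYNPO2) lie above it.

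The endothelial list also holds the ligands VEGFA, ANGPT1 and ANGPT2. Against the mean of the rest of the list, Pearson r over the 6 sows was 0.30 for VEGFA, 0.51 for ANGPT1 and 0.58 for NOS3. The others lay between 0.76 (EMCN) and 0.99 (PLVAP). Each of the 19 measured genes of the list had a lower mean log2 level in the high prolific group, by log2 fold changes from -0.90 (PECAM1) to -0.07 (EMCN). The gap was uneven over the sows. Low 3 was the highest of the 6 in 18 of 19 genes, where 22% of all genes peaked in that library, and low 2 and low 3 were the highest pair in 11 of 19 against 12.8% of all genes. High 3 was the lowest in 11. Low 1 was the lowest in 3, FLT4, EMCN and MMRN2. Summed over the 19 genes, the level was 30791, 23765 and 22819 in high 1 to high 3 and 26461, 35296 and 45324 in low 1 to low 3. Thus high 1 exceeded low 1, and the group ranges overlapped.

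Of the junction and surface molecules, PECAM1, an adhesion molecule of endothelial contacts that platelets and leukocytes also carry, was at 3201, 2356 and 2663 in high 1 to high 3 and at 4211, 4834 and 6353 in low 1 to low 3. Every high prolific sow lay below every low prolific sow, with a 1.86-fold gap (log2 fold change -0.90 ± 0.19 SE, adjusted p = 0.619 with limma). Over the 16 alternative settings its log2 fold change stayed between -1.03 and -0.63. CDH5, the cadherin of endothelial junctions, did not separate the groups in this way, at 3209, 2147 and 1667 against 2177, 3057 and 4507. High 1 here exceeded both low 1 and low 2. The log2 fold change of CDH5 was -0.46 ± 0.33, which shrank to -0.19 with low 3 dropped and turned to 0.05 with low 2 dropped as well. ESAM, another junction molecule, was at 614, 566 and 558 against 606, 718 and 878, with a log2 fold change of -0.33 ± 0.16 that dropped to -0.19 once low 3 was left out and to -0.07 once low 2 was too. EMCN, a sialomucin of capillary and venous endothelium, was at 1554, 1652 and 1342 against 1189.9, 1723 and 1963, with low 1 below all 3 high prolific sows.

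NOS3, the endothelial synthase of the vasodilator nitric oxide, was at 293, 315 and 385 in high 1 to high 3 and at 456, 489 and 583 in low 1 to low 3. The groups did not overlap, with a 1.54-fold gap (log2 fold change -0.62 ± 0.16 SE, adjusted p = 0.619 with limma), and the value stayed between -0.74 and -0.47 over the alternatives. ROBO4, a guidance receptor that stabilizes vessels, also separated the groups, at 1106, 956 and 989 against 1149, 1183 and 1780.0. Its low prolific mean leaned on low 3, with a log2 fold change of -0.40 ± 0.19 that shrank to -0.20 once that sow was left out and to -0.18 once low 2 was left out as well. ENG, a coreceptor of the transforming growth factor beta family, was at 2907, 2494 and 2339 against 2821, 4572 and 4971. Its log2 fold change was -0.64 ± 0.23, and -0.13 without both low 2 and low 3, since low 1 lay within the high prolific range. PLVAP, which forms the diaphragms of fenestrated endothelium, was at 2313, 1541 and 1302 against 1481, 2507 and 4353. It was highest in low 3 and its groups overlapped, and dropping low 3 took its log2 fold change from -0.60 ± 0.41 to -0.21, and dropping low 2 as well turned it to 0.17. MMRN2, an endothelial matrix glycoprotein, was at 245, 165 and 141 against 137, 243 and 271.

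The 3 receptors for vascular endothelial growth factors were each highest in low 3. KDR, its main signalling receptor, was at 4216, 3137 and 2556 in high 1 to high 3 and at 2918, 4705 and 6309 in low 1 to low 3, a log2 fold change of -0.45 ± 0.32. Low 1 lay within the high prolific range, and the value moved to -0.20 when low 3 was dropped and to -0.75 when low 1 was, and turned to 0.15 with low 2 and low 3 both dropped. FLT1, a second receptor that binds the ligand tightly with little signalling, was at 1439, 1141 and 1309.9 against 1292, 1843 and 2333 (-0.46 ± 0.23). Dropping low 3 took it to -0.26, and dropping low 2 as well to -0.0009. FLT4, the receptor of lymphatic endothelium, spread most among the endothelial genes, 4.15-fold from the lowest to the highest sow. It was at 299, 154 and 184 against 99.5, 242 and 413, so that the lowest and the highest sow were both low prolific. Its log2 fold change of -0.08 ± 0.54 turned to 0.39 without low 3.

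The ligand VEGFA, which many cell types secrete, had the narrowest spread of the endothelial group, 1.41-fold. It was at 4871, 3585 and 4457 against 4403, 5050 and 4319, with the groups overlapping (log2 fold change -0.10 ± 0.15, and -0.04 with low 2 and low 3 dropped). It was also the 1 gene of the group that peaked in low 2 and not in low 3. Of the angiopoietin system, the receptor TEK was at 1571, 1268 and 962 against 1082, 1189 and 1805. Its partner TIE1 was at 1052, 700.5 and 595 against 826, 1113 and 1825, with a log2 fold change of -0.64 ± 0.34. That shrank to -0.34 once low 3 was dropped and to -0.12 once low 2 was dropped too. TEK stood at -0.09 ± 0.26, and turned to 0.13 once low 3 was dropped. The groups overlapped in both receptors, and a difference between the 2 genes was not tested. The agonist ANGPT1 was low in this table, at 74.8, 77.8 and 42 against 96.4, 68.3 and 98.9. ANGPT2, the context-dependent antagonist, was at 669, 633 and 581 against 601, 603 and 839, where low 3 alone lay above the high prolific sows.

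The transcription factors ERG and SOX18, which maintain endothelial identity, were highest in low 3 too. ERG was at 792, 624 and 541 against 603, 764 and 1187 (log2 fold change -0.34 ± 0.28, but -0.08 with low 3 dropped and 0.10 with low 2 dropped as well). SOX18 was at 365, 253 and 205 against 312, 395 and 534 (-0.60 ± 0.28, but -0.40 and -0.23 in the same 2 fits). In both genes high 1 exceeded low 1, and high 3 was the lowest sow.

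**Figure D3:**
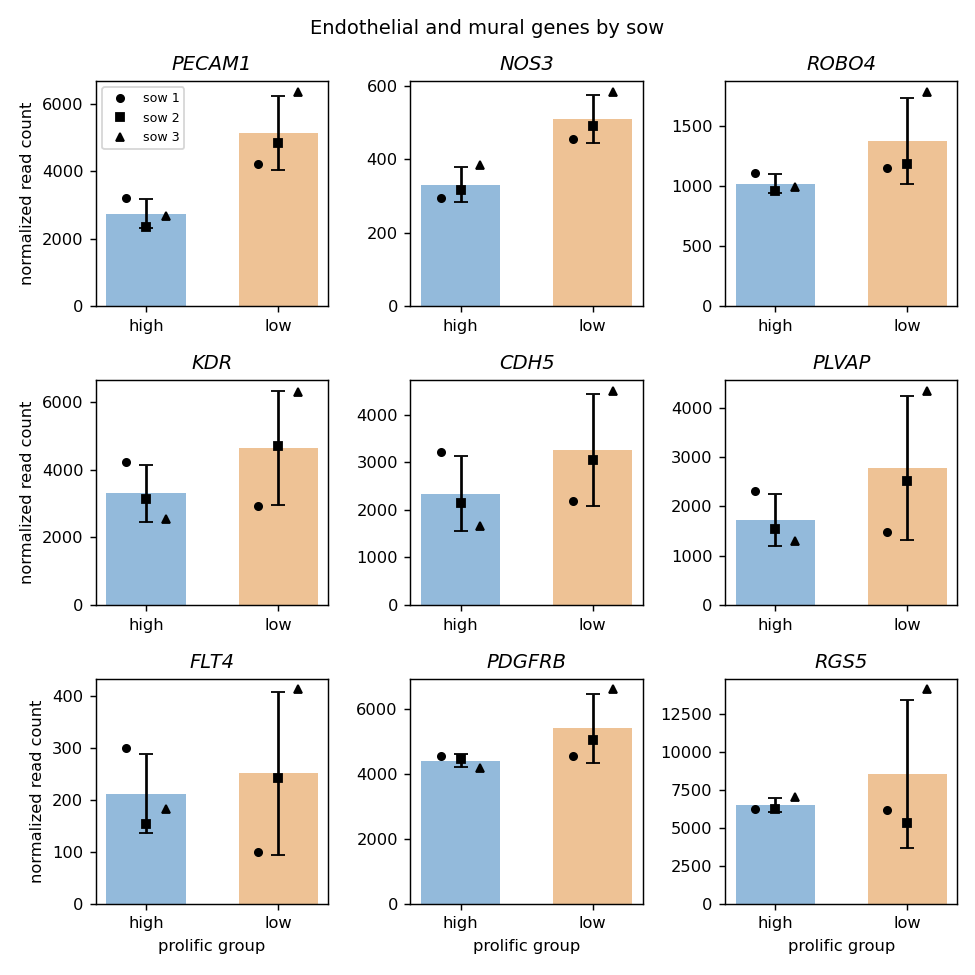
Normalized read counts (linear axes from 0) of 7 endothelial and 2 mural genes, blue for the high and orange for the low prolific group. Each bar is the mean of 3 sows with its SD, each symbol is 1 sow, and PECAM1, NOS3, ROBO4 and PDGFRB do not overlap between groups whereas RGS5 stands out in low 3 alone (14164).

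The 4 mural genes, markers of pericytes, peaked in low 3 without exception. RGS5, a regulator of G protein signalling in pericytes, was at 6257, 6238 and 7022 in high 1 to high 3 and at 6173, 5307 and 14164 in low 1 to low 3. Apart from low 3 the sows lay close together, and leaving it out turned the log2 fold change from -0.25 ± 0.36 to 0.18. PDGFRB, the receptor through which pericytes are recruited, was at 4566, 4476 and 4191 against 4574, 5060 and 6619. These groups did not overlap, but only 4566 in high 1 and 4574 in low 1 set them apart (log2 fold change -0.28 ± 0.16, but -0.13 with low 3 dropped and -0.05 with low 2 dropped as well). CSPG4, the proteoglycan NG2 of pericytes, was at 455, 346 and 607 against 535, 632 and 859.7 (-0.53 ± 0.26, but -0.33 without high 2, -0.35 without low 3 and -0.23 with low 2 dropped as well). NOTCH3, a receptor of arterial mural cells, was at 2451, 2764 and 1755 against 2027, 1977 and 3303 (-0.05 ± 0.26), and it turned to 0.19 without low 3. The median of the mural genes turned as well, from -0.27 to 0.03, when low 3 was left out, and 2 of 4 then lay lower.

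Contractile genes took 2 directions. Of 13, 10 lay lower in high prolific sows, and 7 of these did not overlap between groups (ACTA2, ACTG2, CNN1, TPM1, TPM2, DES and MYL9), while MYH11, CALD1 and SYNPO2 lay higher with overlapping groups. Over all genes 50.4% lay lower, and 6.32% were lower and 7.18% higher without overlap. High 2 was the lowest sow in 7 of 13. Summed over the 13 genes, the level did not separate the groups, at 72459, 69491 and 57674 against 69293, 70264 and 67720, since CALD1, MYH11 and TPM1 hold most of that sum.

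ACTG2, the gamma actin of visceral smooth muscle, had the largest gap of the 36 genes. It was at 476, 118 and 317 in high 1 to high 3 and at 727, 1882 and 947 in low 1 to low 3. That is a 4.16-fold gap with no overlap (log2 fold change -2.06 ± 0.58 SE, adjusted p = 0.619 with limma), and a 16-fold spread from high 2 to low 2, the widest of the 36 genes. Over the alternatives the value stayed between -2.49 and -1.47. ACTA2, the alpha actin of vascular smooth muscle and myofibroblasts, was at 4881, 2732 and 4779 against 6676, 10018 and 7297. It was 1.97-fold lower in high prolific sows (log2 fold change -0.98 ± 0.27 SE, adjusted p = 0.619 with limma) and kept within -1.17 and -0.70. ACTA2 and ACTG2 encode nearly the same protein, and how the counting treated any reads that match both genes is not known.

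Of the proteins that bind actin, CNN1, calponin, was at 806, 325 and 758 against 823, 1296 and 919. Only the small step from 806 to 823 kept the groups apart, and without high 2 the log2 fold change was -0.35 instead of -0.77 ± 0.38. TPM2, a tropomyosin of muscle thin filaments, was at 2039, 1099 and 1539 against 2092, 2974 and 2734 (-0.77 ± 0.25, but -0.47 with low 2 and low 3 dropped). High 1 and low 1 again lay close to each other. TPM1, a tropomyosin found in many cell types, was at 13780.0, 13318 and 13294 against 14329, 16831 and 18475, a narrower gap of -0.29 ± 0.13 that was -0.09 with low 2 and low 3 dropped. CALD1, caldesmon, lay the other way, at 26181, 21188 and 16038 against 17485, 14359 and 19882 (0.28 ± 0.22), with the groups overlapping. Its value was 0.11 without high 1, 0.15 without low 2 and 0.46 without high 3. LMOD1, which nucleates actin filaments, was at 675, 543 and 533 against 633, 644 and 814 (-0.26 ± 0.16, but -0.13 with low 2 and low 3 dropped). SMTN, smoothelin, had the narrowest spread of the contractile group, 1.29-fold, at 3425, 2778 and 3242 against 2947, 3309 and 3598.

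The myosin chains went apart. MYL9, the regulatory light chain of smooth muscle myosin, was at 1479.8, 899 and 1295 against 1568, 2112 and 2281, lower in every high prolific sow (log2 fold change -0.71 ± 0.23, but -0.39 with low 2 and low 3 dropped). MYH11, the smooth muscle heavy chain, was at 13483, 21899 and 11627 against 16882, 13364 and 7666 (0.33 ± 0.36). High 2 had the most MYH11 and the least MYL9, ACTG2, ACTA2, CNN1, TPM2 and DES, and low 3 had the least MYH11. The log2 fold change of MYH11 was 0.06 without high 2 and 0.0062 without low 3, and it turned to -0.16 with low 2 dropped too. DES, desmin, the intermediate filament of muscle, was at 473, 111 and 409 against 506, 646 and 659.7. Here the log2 fold change of -1.11 ± 0.54 leaned on high 2 and was -0.45 without that sow.

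SYNPO2, an actin-bundling protein of smooth muscle, was at 4719, 4438 and 3802 against 4569, 2789 and 2406. It was the 1 contractile gene whose lowest pair was low 2 and low 3, with a log2 fold change of 0.46 ± 0.25, or -0.09 when both were left out. MYOCD, the coactivator that switches on smooth muscle genes, was low in this table, at 40.6, 44.1 and 39.1 against 54.5, 38.6 and 41. It differed little between groups (-0.10 ± 0.24), and low 1 alone lay above the others.

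**Figure D4:**
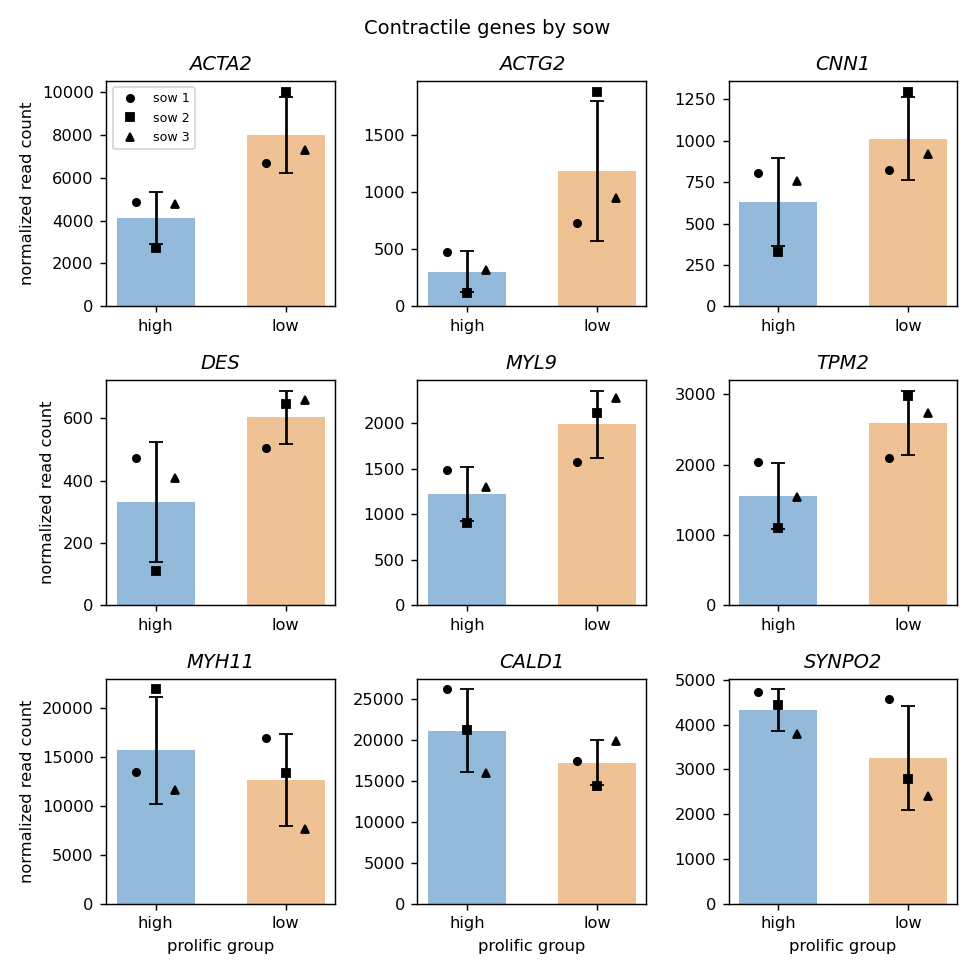
Normalized read counts (linear axes from 0) of 9 contractile genes, blue for the high and orange for the low prolific group. Each bar is the mean of 3 sows with its SD, each symbol is 1 sow, with ACTG2 lowest in high 2 (118) and highest in low 2 (1882), and MYH11 highest in high 2 (21899).

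The medians were computed again with low 2 and low 3 left out. Without both, 10 of 19 endothelial genes lay lower and 9 higher, with a median of -0.0009, and the mural median was 0.01. Over the same 4 sows 11 of 13 contractile genes lay lower, with a median of -0.39. The 7 contractile genes that did not overlap between groups were nonetheless closer to 0 in that fit (ACTG2 -1.47, DES -0.86, ACTA2 -0.74, CNN1 -0.50, TPM2 -0.47, MYL9 -0.39 and TPM1 -0.09). MYH11 (-0.16), SYNPO2 (-0.09) and MYOCD (-0.40) moved downward. At an unadjusted p under 0.05 only PECAM1 was left of the 7, which is 1 of 36 genes where 4.42% of all genes were under it. This leaves low 1 as the only low prolific library, whose variance is assumed to equal that of the others. With low 3 alone left out the endothelial median was -0.20, with 15 of 19 lower, and 4 of the 36 genes had an unadjusted p under 0.05, near the 9.67% of all genes in that fit. The count of genes lower without overlap was still 11, but RGS5 was then higher without overlap and 14.7% of all genes were lower by that rule. With parity in the fit the endothelial median was -0.29 with 17 of 19 lower, the mural median -0.18 and the contractile median -0.26 with 10 of 13 lower. The endothelial median was -0.28 without high 3, the mural median -0.14 with library weights, and the contractile median -0.50 over the 12 genes with a mean of at least 200. With low 1 left out, 10 endothelial, 1 mural and 6 contractile genes had an unadjusted p under 0.05, 17 of 36, where 13.1% of all genes did. No setting brought any of the 36 genes past the adjusted threshold.

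**Figure D5:**
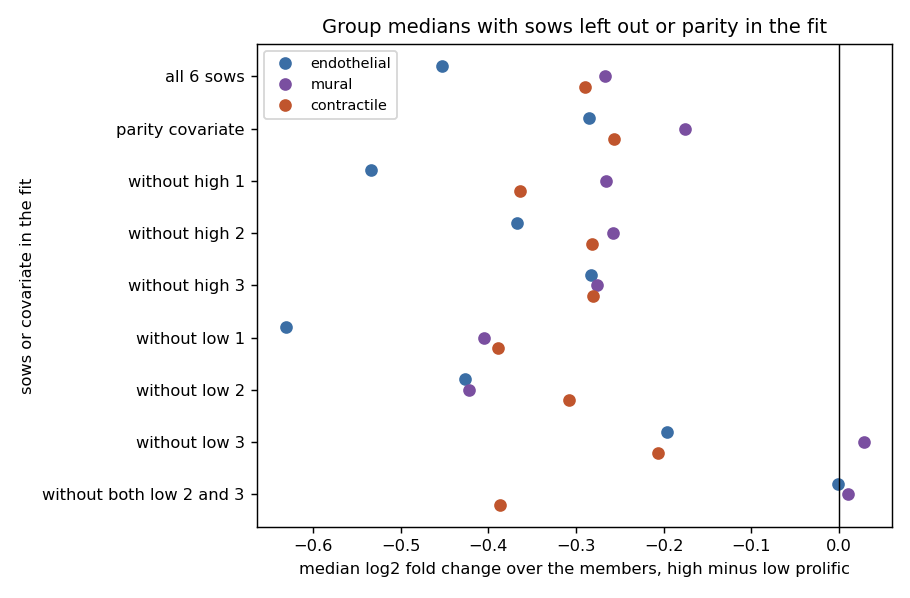
Median log2 fold change, high minus low prolific, over the 19 endothelial, 4 mural and 13 contractile genes (points) with all 6 sows, with parity as a covariate and with sows left out (rows). The endothelial and mural medians reach -0.0009 and 0.01 without both low 2 and low 3, and the contractile median is -0.39 there.

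Other genes of the same pathways were followed in 5 lists, and none passed limma's test over all genes. Of 36 further endothelial genes 30 were measured, with 26 lower in high prolific sows, a median log2 fold change of -0.44 and 22 of 30 highest in low 3. At an unadjusted p under 0.05 there were 6, all lower, where 4.09% of all genes were lower by that rule. The 4 with the smallest p were GJA1, a gap junction connexin that is not confined to endothelium, SELP, the P-selectin that captures leukocytes, PTPRB, a phosphatase that restrains TEK, and the water channel AQP1. GJA1 averaged 2581 ± 392 in the high and 3782 ± 551 in the low prolific group (SD, n = 3). SELP was at 257 ± 36.3 against 405 ± 79.9, PTPRB at 2849 ± 85.6 against 4519 ± 1358 and AQP1 at 1693 ± 337 against 3087 ± 1232. In all 4 genes, picked for their small p, the groups did not overlap. Over the list that held for 10 of 30, all lower, where 6.32% of all genes were lower without overlap.

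Of 38 genes of angiogenic and vasoactive signalling 33 were measured, 26 lower and 7 higher, with a median of -0.26. GUCY1B1, a subunit of the nitric oxide receptor, was at 1251 ± 145 against 1977 ± 391 (SD, n = 3). The endothelin receptor EDNRA was at 1150 ± 251 against 1785 ± 330 and HEYL, a Notch target, at 160 ± 35.8 against 233 ± 10.2. PDGFC, a platelet-derived growth factor, lay higher in high prolific sows, at 1131 ± 366 against 620 ± 198, with overlapping groups. Of these 33 genes 3 were lower and 1 was higher at an unadjusted p under 0.05, where 4.09% of all genes were lower and 3.83% higher.

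All 14 further mural genes were measured, 10 lower and 4 higher, with a median of -0.15. MCAM, an adhesion molecule of vessel walls, was at 1261 ± 199 against 1755 ± 215 without overlap (SD, n = 3). TBX18 (100.2 ± 16.1 against 136 ± 23), GJC1 (446 ± 103 against 605 ± 140) and ABCC9 (749 ± 84 against 1240 ± 765) overlapped between groups. These 4 genes were picked for their small p. MCAM was the 1 gene of 14 without overlap, where 6.32% of all genes were lower and 7.18% higher.

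Of 53 further genes of smooth muscle and its cytoskeleton 41 were measured, 24 lower and 17 higher, with a median of -0.05. FLNA, an actin crosslinker, was at 10350.2 ± 1226 against 14766 ± 663, and TPM4, a tropomyosin of non-muscle cells, at 7218 ± 980 against 10954 ± 1777 (SD, n = 3). MYLK, the kinase that activates MYL9, was at 3524 ± 551 against 4652 ± 36.1. ITGA7, a laminin receptor of muscle, was at 531 ± 107 against 782 ± 135. In these 4 genes, picked for their small p, the groups overlapped in ITGA7 but not in the other 3. Over the list 8 of 41 were lower and 1 was higher without overlap. Of all genes 6.32% were lower and 7.18% higher by that rule. Of these 41 genes 7 were lower and 1 was higher at an unadjusted p under 0.05, where 4.09% of all genes were lower and 3.83% higher.

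The vascular basement membrane and elastic matrix had 15 of 16 genes measured, 14 lower, with a median of -0.35. COL15A1, a basement membrane collagen, was at 3414 ± 319 against 6016 ± 1277 and the elastic fiber genes ELN and EMILIN1 at 911 ± 65.9 against 1598 ± 529 and 1504 ± 98.9 against 2006 ± 354 (SD, n = 3). COL4A2, a collagen IV chain, was at 12106 ± 2409.6 against 23130 ± 9854, with low 1 (12746) inside the high prolific range. Low 3 was the highest sow in 9 of 15 and low 2 in 5, where 22% and 21% of all genes peaked in these libraries.

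Markers of other cell types moved with some of these sows, and their part in the results was not tested. The 11 measured stromal fibroblast markers of 12, led by COL3A1, COL1A1 and COL1A2, summed to between 513479 and 699222 in high and between 607440 and 819446 in low prolific sows, highest in low 2 and low 3. These 3 collagens carry that sum. Gene by gene, low 3 lay above the mean of the 6 sows in all 11 markers, high 1 in 8 and low 2 in 6. The erythrocyte markers HBB and ALAS2, 2 of 7 listed, summed to between 624 in high 2 and 2523 in high prolific sows and to between 1691 and 7972 in low prolific sows, with the most in low 3. The 5 measured neutrophil markers of 8, led by MMP8, S100A8 and S100A12, summed to between 349 in high 2 and 9205 against between 11710 and 23335. That sum is carried by the 3 named genes, each with overlapping groups, and CSF3R (213 ± 151 against 137 ± 81.7) and MMP9 (55.7 ± 24 against 42.9 ± 2.81) lay the other way (SD, n = 3). Epithelial markers, 11 of 12 with CDH1, KRT8 and EPCAM at the top, summed to between 79151 and 82530 against between 66662 in low 3 and 92347. That sum joins genes that went apart, 7 higher in high prolific sows and 4 lower. CDH1, CLDN3 and CLDN4 were lower without overlap, where 6.32% of all genes were. The keratins KRT7, KRT8 and KRT18 had their lowest levels in low 2 and low 3. The leukocyte markers, all 12 and led by CD74, PTPRC and CSF1R, summed to between 8914 and 12817 against between 9144 and 14473. Gene by gene, 10 of 12 lay higher in high prolific sows and 2 lower, with a median log2 fold change of 0.09. High 2 was the highest sow in 8 of them. Of 6 mesothelial markers only WT1, which stromal cells of the uterus also make, was measured, at 838 ± 39.9 against 668 ± 197 (SD, n = 3). Of 8 striated muscle markers 0 matched a row.

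Outside all lists, the genes whose log2 values over the 6 libraries were most like the mean contractile profile were LYPLA2 (Pearson r = 0.995) and PTK6 (r = 0.994). They were picked as the closest of all genes with a symbol, and the libraries share their normalization, so the values are a description. Not all contractile genes followed that profile. Against the mean of the rest, r was -0.64 for MYH11, -0.59 for SYNPO2, -0.37 for CALD1 and -0.09 for MYOCD. The others lay between 0.64 (SMTN) and 0.97 (TPM2). PTK6 was at 204, 97.7 and 147 in high 1 to high 3 and at 231, 265 and 255 in low 1 to low 3. LYPLA2 followed that order of sows over a narrower range, at 1177, 979 and 1089 against 1178, 1274 and 1212.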

How the data were processed

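RNA of endometrium from 3 high and 3 low prolific sows was sequenced, 1 library a sow. The authors deposited 1 table of normalized read counts, a signal per gene and library that is never negative and not whole. Per the submitters' processing notes they used Subread 1.6, featureCounts and edgeR. Roles, settings, genome build, annotation and strand use were not given in the sources used here. Low genes had been removed, since all 14262 genes reached 10 in at least 3 libraries. Of the values under 20, 100% in high 3 and 94.3% in high 1 came within 0.1 of a multiple of a common step. In high 2, low 1, low 2 and low 3 between 40.6% and 64.6% did. Whole reads were therefore not recovered for every library, no count model was run, and depth was not established. An Ensembl identifier table gave symbols for 11977 genes.

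High were set against low prolific sows by a two-sided limma test (version 3.58.1, R 4.3.3; log2(value + 1), variance trend, robust moderation), adjusted by Benjamini-Hochberg over 14262 genes (threshold 0.05). The procedure was tested on simulated data. Nothing in the labels says that numbers pair sows. Each p-value sets the group difference against the spread between these sows, as moderated by limma over all genes.

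The members and lists were chosen with earlier results of these data known. Named genes were all members, the 4 smallest p of each related list, the 3 most abundant of each marker list and the 2 genes most like the contractile mean. Members are described by counts and medians, with no list test. Alternatives were pseudocounts of 0.1 and 10, a mean of at least 200, 2 other scalings, no variance trend, library weights, parity, a replicate block and left-out sows.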

Additional observations from a re-analysis of the deposited data

How the results depend on the processing

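Values here are log2 fold changes, high minus low prolific, and none of the 36 genes passed the adjusted threshold under any of the 16 alternatives, where 539 of 574 values kept their sign. The number of genes called over the whole table ranged from 0 to 4 with 1 sow left out (4 without low 1, 1 without low 2). Over the same fits the mural median ranged from -0.42 to 0.0282 and turned without low 3. Without both low 2 and low 3 the endothelial median was -0.0009 and the mural median 0.0102, and the sign turned for CDH5 (0.0515), KDR (0.148), FLT4 (1.03), TEK (0.199), EMCN (0.344), ERG (0.0958), PLVAP (0.171), MMRN2 (0.378), ANGPT2 (0.0593), RGS5 (0.0735), NOTCH3 (0.172), MYH11 (-0.16), SMTN (0.0896) and SYNPO2 (-0.0868). With parity as a covariate FLT4 (0.194), TEK (0.0549) and NOTCH3 (0.0464) turned, and with library weights TEK (0.0057), EMCN (0.0067) and NOTCH3 (0.126). With 1 sow left out the values ranged across 0 for FLT4 (-0.63 to 0.391), TEK (-0.26 to 0.131), EMCN (-0.28 to 0.0769), VEGFA (-0.20 to 0.0249), ANGPT2 (-0.18 to 0.0576), RGS5 (-0.53 to 0.18), NOTCH3 (-0.19 to 0.19), SMTN (-0.14 to 0.0255) and MYOCD (-0.20 to 0.0497). The cause of these turns was not tested.

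The labels give both groups the numbers 1 to 3. Same-numbered sows did not deviate together (correlations of deviations from the group means -0.38, -0.16 and -0.36). With 3 sows a group these values cannot decide whether the numbers pair them. A fit with the number as a replicate block called 0 genes and had 615 instead of 1129 genes at an unadjusted p under 0.05. With 1 sow of each group per number the block cannot move a log2 fold change, so the medians are those of the fit without it. The depth was not established, so counting error is not given, and 3 sows a group limit what the test can call.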
